A study of Rattus norvegicus with 2 samples.

Results

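The genes described here encode the contents and a membrane protein of cytotoxic granules in the rat: Prf1, Gzma, Gzmb, Gzmk, Gzmm, Gzmbl3, Nkg7 and Ctsw. They were chosen by symbol, 8 of the 26976 symbols in the count matrix, and all 8 were found there. They were followed in 3 gates of single cells set by other transcripts. Natural killer cells had a UMI (unique molecular identifier, 1 counted RNA molecule) of Ncr1 and none of Cd3e. CD8 T cells had a UMI of both Cd3e and Cd8b, and Klra22+ cells had a UMI of Klra22, a gene of the Ly49 receptor family, so that the last gate overlaps the others. The number of hearts in a library is not given in the labels. The cells were CD45+ leukocytes sorted from the infarct and peri-infarct left ventricle of rats labelled wt, 7 days after an operation that caused myocardial infarction (MI), and sequenced with 3′ droplet libraries. One sample, MI, came from infarcted hearts, and the other, MI+PUR-hAESC, from infarcted hearts that also received an epicardial patch, an antioxidant polyurethane scaffold carrying human amniotic epithelial stem cells.

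Both samples lie in 1 matrix, with barcodes ending in 1 (library 1) or 2 (library 2), and no label used here ties an ending to a sample. Each group was 1 library, so no test between groups was possible, and a difference between the libraries cannot be read as an effect of the patch or of its absence. Values are given for both libraries side by side. All intervals are 95% intervals, exact Poisson for levels, exact for the ratio of 2 Poisson counts, and exact binomial (Clopper-Pearson) for shares, and they cover counting error only, not the spread between animals. Those of a ratio take its 2 counts as independent, so between gates that share cells they are only approximate.

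Killer lymphocytes carry perforin and granzymes in secretory granules that are emptied onto a target cell. Perforin, the product of Prf1, forms pores in the target membrane and lets granzymes, a family of serine proteases, reach the cytosol. Granzymes A and K (Gzma, Gzmk) cut after basic residues, granzyme B (Gzmb) cuts after aspartate and triggers apoptosis, and granzyme M (Gzmm) prefers methionine or leucine. Gzmbl3 is named for its likeness to Gzmb, and its function is not described here. Nkg7 encodes a granule membrane protein needed for full degranulation in mice, and Ctsw encodes cathepsin W, a cysteine protease of killer lymphocytes. A cell with granzyme but without perforin therefore holds another granule mixture than a cell with both, which is why the members were read against Prf1 cell by cell.

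RefSeq start regions (GRCr8, 250 bases before to 50 after the gene start) were matched by symbol for 7 of the 8 members, and 5 are shown because Prf1, Gzma and Gzmk were found together in natural killer cells while Gzmb was near 0 and Gzmbl3 was higher in CD8 T cells. Capitals mark the motifs TGTGGT (RUNX) and AGGTGT (T-box), each searched on both strands, so also as ACCACA and ACACCT, which do not overlap in these windows. Gzma and Gzmk are adjacent protein-coding genes on chromosome 2, and Gzmbl3, Gzmc and Gzmb follow one another on chromosome 15. The regions are chr20:29788790-29789089 (+ strand) for Prf1, chr2:46485647-46485946 (- strand) for Gzma, chr2:46581966-46582265 (- strand) for Gzmk, chr15:34462420-34462719 (- strand) for Gzmb and chr15:34339839-34340138 (- strand) for Gzmbl3, each written 5′ to 3′ on the strand of the gene.
Prf1: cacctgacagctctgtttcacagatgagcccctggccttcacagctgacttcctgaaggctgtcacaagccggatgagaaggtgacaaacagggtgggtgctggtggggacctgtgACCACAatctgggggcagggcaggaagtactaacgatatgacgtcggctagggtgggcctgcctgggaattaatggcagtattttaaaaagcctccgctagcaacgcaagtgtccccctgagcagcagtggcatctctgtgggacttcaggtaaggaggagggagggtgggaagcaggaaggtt
Gzma: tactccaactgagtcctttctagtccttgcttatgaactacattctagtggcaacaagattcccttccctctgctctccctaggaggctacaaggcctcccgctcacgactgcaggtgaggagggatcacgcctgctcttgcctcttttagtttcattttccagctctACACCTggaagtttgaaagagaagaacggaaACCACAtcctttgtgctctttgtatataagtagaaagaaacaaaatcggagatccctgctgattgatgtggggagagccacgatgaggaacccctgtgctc
Gzmk: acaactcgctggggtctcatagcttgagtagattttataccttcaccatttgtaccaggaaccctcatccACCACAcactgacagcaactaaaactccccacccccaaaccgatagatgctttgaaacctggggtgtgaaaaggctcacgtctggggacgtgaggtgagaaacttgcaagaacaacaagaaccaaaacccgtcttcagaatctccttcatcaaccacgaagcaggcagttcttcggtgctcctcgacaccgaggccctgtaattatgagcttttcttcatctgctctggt
Gzmb: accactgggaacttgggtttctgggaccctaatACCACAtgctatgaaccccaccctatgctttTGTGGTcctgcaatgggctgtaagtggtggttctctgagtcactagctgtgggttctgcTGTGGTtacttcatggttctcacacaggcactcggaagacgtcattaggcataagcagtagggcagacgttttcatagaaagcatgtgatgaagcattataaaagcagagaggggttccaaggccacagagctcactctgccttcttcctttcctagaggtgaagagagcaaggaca
Gzmbl3: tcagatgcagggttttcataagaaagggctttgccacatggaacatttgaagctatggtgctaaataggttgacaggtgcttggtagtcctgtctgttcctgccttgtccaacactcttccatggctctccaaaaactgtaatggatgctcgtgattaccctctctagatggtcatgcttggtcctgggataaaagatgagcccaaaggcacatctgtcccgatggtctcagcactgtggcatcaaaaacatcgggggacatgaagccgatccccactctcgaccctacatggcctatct
TGTGGT lay in 6 of the 7 member windows, all but that of Gzmbl3, and in 17.3% of all 33469 windows of the same length. In Prf1, Gzma, Gzmk and Gzmm the match was on the other strand, read here as ACCACA. The first base of ACCACA was at position -134 from the gene start in Prf1, -51 in Gzma, -180 in Gzmk and -94 in Gzmm. Gzmb had 3 matches. AGGTGT lay in 1 member window, that of Gzma, as ACACCT with its first base at position -82, and in 13.65% of all windows. The motif GGAAG (ETS), not in capitals, lay in 6 member windows, all but that of Gzmk, and in 70.06% of all windows. A match is a run of letters, not a bound site, and no match says nothing of the factor.

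The libraries held 14283 and 15666 barcodes with 72506643 and 82802439 UMIs, and 13334 and 14434 cells stayed after filters and removal of called doublets. The natural killer gate held 1064 and 1361 cells, CD8 T 1211 and 2430, and Klra22+ 271 and 359, with median depths of 4217 to 5904 UMIs. Of the marker lists, Ncr1, Cd3e and Cd8b set the gates and were left out of the sums given here. The other 12 natural killer markers summed to 12410 and 11440 CPM (UMIs per 1000000 UMIs of the gate) in the natural killer gate and to 2692 and 2103 in CD8 T cells, but to 13890 and 12390 in neutrophils, so the whole sum does not tell natural killer cells from neutrophils. Tyrobp and Fcer1g alone made up 13790 and 12240 of the neutrophil sum. The 10 markers without these, a division made after the values were seen, summed to 4007 and 3956 in the natural killer gate, 2365 and 2400 in Klra22+ cells, 1279 and 1016 in CD8 T cells and 102 and 155 in neutrophils. The 8 other T cell markers of the matrix summed to 4183 and 4261 in CD8 T cells and to 811 and 764 in the natural killer gate. Of the Klra22+ cells, 203 and 260 had Cd3e and 33 and 57 were in the natural killer gate, so Klra22+ cells were mostly T cells by Cd3e. Across the gates, 2 to 11 barcode sequences per gate and library were also present in the other library.

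Neutrophil transcripts were present in the natural killer gate. S100a8, S100a9, Csf3r and Il1r2 summed to 12250 and 8691 CPM there, and 191 cells (17.9%) of library 1 and 108 (7.93%) of library 2 took at least 0.5% of their UMIs from these 4 genes. Those neutrophil-marked cells had 42.7 and 66.6 Prf1 CPM, against 1435 and 1084 in the other cells of the gate. Their sum over the same 10 markers was 233 and 466 CPM, against 4488 and 4151 in the other cells. Results on the Prf1 pairing are therefore given with and without them, a choice made after the data had been seen. The CD8 T gate of library 2 held 716 cells with a UMI of Rag1, Dntt or Ptcra, genes of T cell development, against 7 in library 1, and several CD8 T results are likewise given without them.

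Prf1 was highest in natural killer cells. It stood at 1277 CPM (1246 to 1309) in library 1 and at 1030 (1007 to 1053) in library 2. CD8 T cells had 291 (280 to 303) and 210 (202 to 217), and Klra22+ cells had 287 (264 to 312) and 265 (247 to 285). The natural killer level was thus 4.39 (4.19 to 4.59) and 4.92 (4.72 to 5.12) times that of CD8 T cells, and 4.87 and 4.47 times without neutrophil-marked and Rag1, Dntt or Ptcra cells. Between CD8 T and Klra22+ cells the order was not resolved in library 1, where the ratio was 0.987 (0.898 to 1.08), and in library 2 Klra22+ cells were 1.27 (1.17 to 1.37) times higher. The few T cells with Ncr1 (62 and 165) lay between natural killer and CD8 T cells at 590 and 592, and CD4 T cells had 118 and 100. B cells had 45.4 and 9.08, neutrophils 6.33 and 5.08, and macrophages 7.67 and 4.61, levels in cells not known to make it that serve as a background. The B cell value of library 1 was not spread evenly. Its 80 UMIs lay in 9 of 521 cells, 41 of them in 1 cell.

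Granzymes A, K and M were also higher in natural killer than in CD8 T cells, by smaller factors. Gzma had 585 and 628 CPM in natural killer cells and 307 and 307 in CD8 T cells, ratios of 1.91 (1.81 to 2.01) and 2.05 (1.97 to 2.13). For Gzmk the natural killer level was 1457 and 876 and the CD8 T level 814 and 701, ratios of 1.79 (1.73 to 1.85) and 1.25 (1.21 to 1.29). Gzmm had 2198 and 1448 in natural killer cells and 951 and 880 in CD8 T cells, ratios of 2.31 (2.25 to 2.38) and 1.65 (1.60 to 1.69). Every one of these 6 ratios was above 1, and the Gzmk ratio of library 2 was 1.08 without neutrophil-marked and Rag1, Dntt or Ptcra cells. The granule membrane gene Nkg7 followed the same order, with 2470 and 2262 in natural killer cells, 1175 and 1017 in CD8 T cells, and ratios of 2.10 (2.05 to 2.16) and 2.22 (2.18 to 2.27). In B cells these 4 genes had 24.4 and 4.10 (Gzma), 56.1 and 14.4 (Gzmk), 61.8 and 15.5 (Gzmm) and 30.1 and 29.3 (Nkg7) CPM.

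Klra22+ cells did not take 1 place in this order. Their Gzma level was 150 and 361 CPM, 0.490 (0.433 to 0.554) and 1.18 (1.10 to 1.26) times that of the whole CD8 T gate. Without Rag1, Dntt or Ptcra cells the CD8 T level was 312 and 363. Klra22+ cells were then still lower in library 1 but level with CD8 T cells in library 2. Gzmk stood at 590 and 574, 0.725 and 0.819 times the CD8 T level, and Gzmm at 1271 and 1367, 1.34 and 1.55 times that level. Nkg7 had 1357 and 1281 CPM, 1.16 and 1.26 times the level of the whole CD8 T gate, which was 1190 and 1210 without Rag1, Dntt or Ptcra cells. Nkg7 of Klra22+ cells thus lay between CD8 T and natural killer cells in both libraries, and Gzmk lay lowest of the 3 gates. Gzmm also lay between them, but the natural killer gate shares cells with the Klra22+ gate. Without Klra22+ cells the natural killer Gzmm level was 2176 and 1370. In library 2 it was then level with that of Klra22+ cells, at a ratio of 1.00 (0.965 to 1.04).

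Ctsw and Gzmbl3 had the opposite order. Ctsw stood at 372 and 250 CPM in natural killer cells, 994 and 908 in Klra22+ cells and 1726 and 1030 in CD8 T cells. CD8 T cells were thus 4.64 and 4.12 times higher than natural killer cells in this cathepsin, and 4.18 and 4.67 times higher without neutrophil-marked and Rag1, Dntt or Ptcra cells. Gzmbl3 had 23.5 and 33.1 in natural killer cells, 40.7 and 24.6 in Klra22+ cells and 64.2 and 94.0 in CD8 T cells, which were 2.73 and 2.84 times higher than natural killer cells. These levels rested on few cells. In CD8 T cells 10 cells held 58.5% and 24.0% of the Gzmbl3 UMIs, and 1 cell of library 1 held 111 of 569. In natural killer cells 10 cells held 53.0% and 46.1%. The 2 genes shared this direction in both libraries, while Prf1, Gzma, Gzmk, Gzmm and Nkg7 were higher in natural killer cells.

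**Figure D1:**
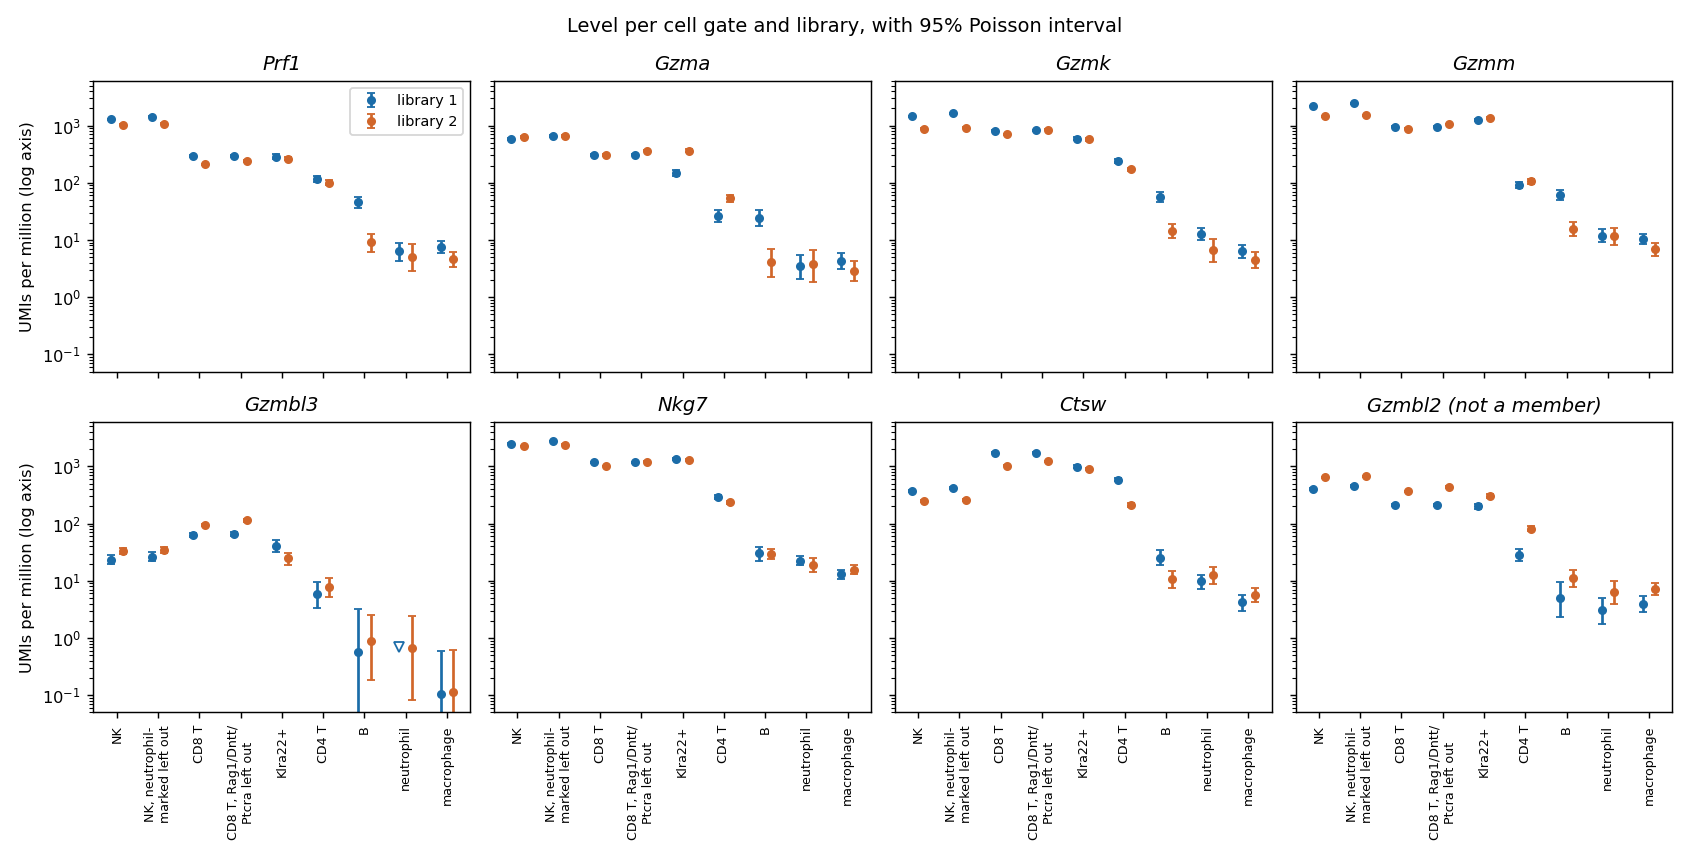
Level of 7 members and of Gzmbl2 in CPM (log axis) by cell gate, with library 1 in blue, library 2 in orange and bars for the exact Poisson interval; a hollow triangle marks the upper end of the interval where no UMI was counted. Prf1 was highest in natural killer cells (1277 and 1030), whereas Ctsw was highest in CD8 T cells (1726 and 1030), and B cells, neutrophils and macrophages gave the background.

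Gzmb, the granzyme B gene, was next to absent from the counts. Over all barcodes it had 12 UMIs in library 1, 9 of them in 1 barcode, and 2 UMIs in library 2. The natural killer gate held 1 Gzmb UMI in library 1 (0.201 CPM) and 0 in library 2, and CD8 T cells had 1.13 CPM and 0. At 1500 UMIs per cell, Gzmb was seen in 0 of 1042 natural killer cells of library 1, which allows a share of cells with a UMI of up to 0.288%, counting 3 cells as the limit of a 0. Among related genes, Gzmbl2 had 5802 and 17969 UMIs over all barcodes and Gzmbl3 933 and 2525, while Gzmc and Gzmf had 2 to 52 and Gzmn had 0.

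Genes of such a family can share sequence, so how the reads were divided among Gzmb, Gzmbl2 and Gzmbl3 is uncertain, and each value is that of the annotated symbol. Gzmbl2, not a member, had 406 and 640 CPM in natural killer cells and 209 and 366 in CD8 T cells. The number of Gzmbl3 UMIs per Gzmbl2 UMI was not the same in the gates, at 0.0580 and 0.0517 in natural killer cells and at 0.308 and 0.257 in CD8 T cells. Of the cells with Gzmbl3 at 1500 UMIs, 84.2% and 84.6% also had Gzmbl2 in the natural killer gate, against 46.8% and 61.1% in CD8 T cells.

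To ask which granzymes went with Prf1 in the same cell, each cell was thinned to 1500 UMIs and cells with and without a Prf1 UMI were compared within a gate. At that depth 58.4% (55.3 to 61.4) and 57.6% of natural killer cells had Prf1, against 74.2% and 80.6% before thinning. CD8 T cells had it in 35.0% and 23.7% (70.6% and 48.7% before thinning), and Klra22+ cells in 29.6% and 27.0% (56.1% and 52.9%). In B cells the share was 1.55% and 1.16% (1.73% and 2.41%), at median depths of 2991 and 2912 UMIs. Every share in the 3 gates thus lay far above that of B cells. Without the neutrophil-marked cells 70.4% and 61.9% of natural killer cells had Prf1.

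In natural killer cells Gzma went with Prf1 with a larger ratio than Gzmk, Gzmm, Nkg7 or Ctsw. In library 1, the 608 cells with Prf1 held 899 Gzma UMIs and the 434 cells without it held 20, a ratio per cell of 32.1 (20.7 to 52.8). In library 2 the ratio was 10.5 (8.51 to 13.1), over 773 cells with Prf1 and 568 without. Of the cells with Gzma, 93.4% and 80.5% also had Prf1. Without neutrophil-marked cells the Gzma ratio was 18.9 (12.2 to 31.1) and 8.74 (7.07 to 10.9), smaller but still above the ratios of those 4 genes.

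Gzmk came next among these, with ratios of 4.35 and 3.98, or 2.57 and 3.32 without neutrophil-marked cells. Gzmm had 2.57 and 2.76 (1.52 and 2.33 without them), and Nkg7 2.17 and 1.72 (1.28 and 1.45). Gzmbl3 counts lay almost entirely in cells with Prf1, 38 UMIs against 0 in library 1 and 69 against 1 in library 2, the latter a ratio of 50.7 (8.80 to 2031). These UMIs came from 1.82% and 2.91% of the natural killer cells. Ctsw did not hold a direction in library 1. Its ratio was 1.56 and 2.32 in the whole gate, and 0.924 (0.772 to 1.11) and 2.01 without neutrophil-marked cells.

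By the rule of a ratio of at least 1.5 with 20 UMIs or more, 6 of the 7 other members passed in each library of the natural killer gate, beside 34.0% of all 6582 genes tested in library 1 and 12.2% of 7160 in library 2. Without neutrophil-marked cells 4 and 5 members passed, beside 12.4% and 8.24% of genes. Gzmb did not reach 20 UMIs in any gate. The median ratio over the tested members without neutrophil-marked cells was 2.04 and 2.83, beside 1.02 and 0.99 over all genes tested.

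**Figure D2:**
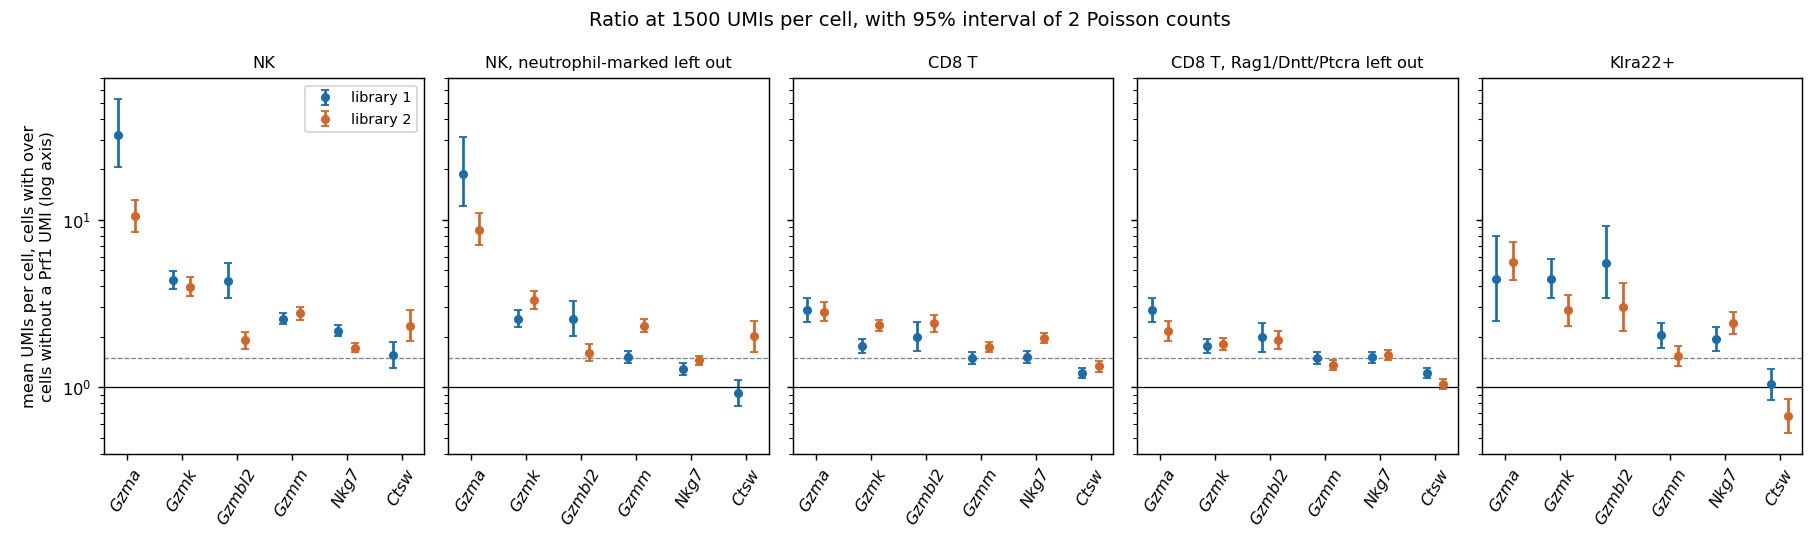
Mean UMIs per cell at 1500 UMIs in cells with a Prf1 UMI over cells without (log axis), for 5 members and Gzmbl2 in each gate, with the interval of 2 Poisson counts; the dashed line marks 1.5. Gzma had the largest ratios of these genes in both natural killer panels (32.1 and 10.5, or 18.9 and 8.74 without neutrophil-marked cells), and Ctsw lay near or below 1 in several panels.

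Gzma and Gzmk were higher at each step of Prf1. Natural killer cells without neutrophil marks were divided by their thinned Prf1 count into 0, 1, 2 to 3, and 4 or more. In library 1, mean Gzma per cell was 0.0787, 0.204, 0.588 and 4.01 along these steps, and in library 2 it was 0.195, 0.503, 0.763 and 5.42. Gzmk went from 1.24 to 5.89 and from 0.605 to 4.79 between the first and the last step. Gzmm went from 2.95 to 6.12 and from 1.35 to 4.61, and Nkg7 from 3.56 to 5.22 and from 3.002 to 4.95. All 4 genes were thus higher at 4 or more Prf1 UMIs than at 0 in both libraries, and Gzma by the largest factor. Ctsw did not follow, with 0.697, 0.661, 0.734 and 0.527 in library 1 and 0.243, 0.484, 0.613 and 0.291 in library 2.

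A minority of natural killer cells carried most of the Gzma. The cells with 4 or more Prf1 UMIs were 17.7% (184 cells) and 12.9% (173 cells) of the gate. They held 737 of the 919 Gzma UMIs (80.2%) in library 1 and 941 of 1409 (66.8%) in library 2, and 36 of 38 and 61 of 70 Gzmbl3 UMIs. Their part of the Gzmk UMIs was 48.2% and 45.2%, of Gzmm 32.6% and 25.9%, of Nkg7 26.2% and 17.9%, and of Ctsw 17.1% and 10.1%. So Gzma was the most, and Ctsw the least, gathered in the Prf1-high cells among Gzma, Gzmk, Gzmm, Nkg7 and Ctsw. Without neutrophil-marked cells the Prf1-high cells were 184 and 172, and held 80.2% and 66.6% of the Gzma and 17.1% and 10.2% of the Ctsw UMIs. Before thinning they then had a median of 4552 and 5070 UMIs, against 4719 and 5081 in cells without Prf1, whereas in the whole gate cells without Prf1 were shallower, at 3766 and 4903. A UMI of the division genes Mki67 or Top2a was present in 11.4% and 20.3% of the Prf1-high cells and in 11.02% and 22.6% of cells without Prf1, neutrophil-marked cells left out, and in 7.14% and 19.7% of all cells without Prf1.

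**Figure D3:**
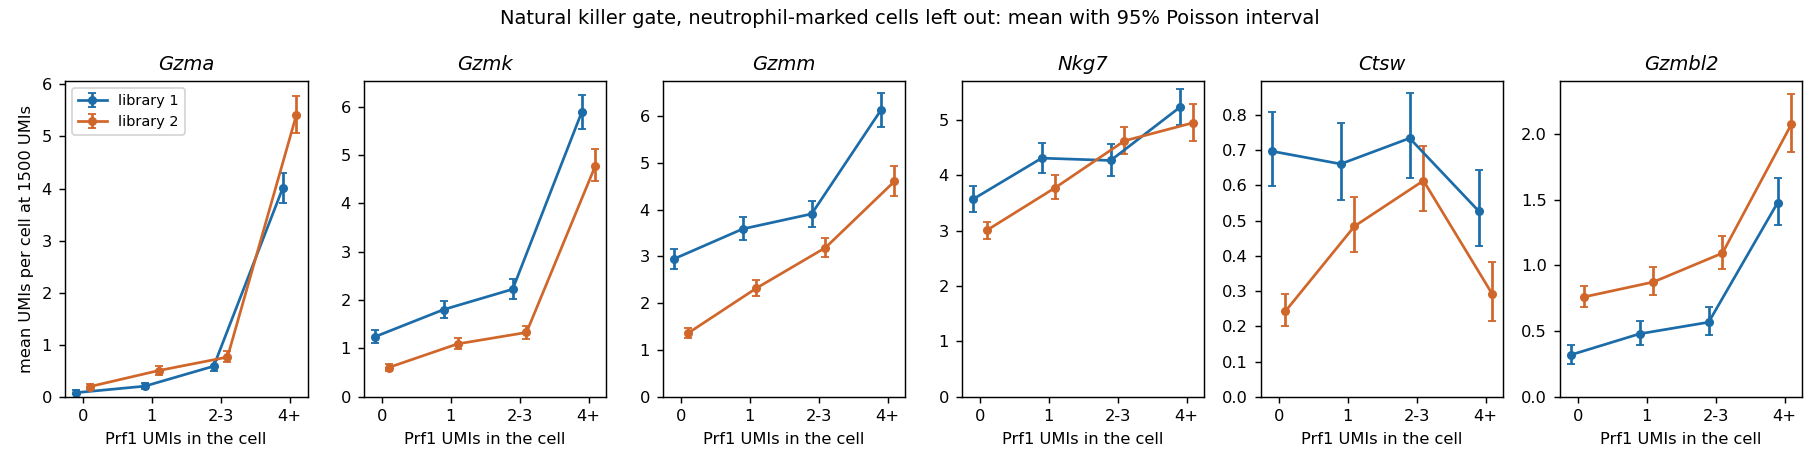
Mean UMIs per cell at 1500 UMIs (vertical axes from 0, scaled per gene) by the number of Prf1 UMIs in the cell, for natural killer cells without neutrophil marks, with exact Poisson intervals. Gzma was highest at 4 or more Prf1 UMIs (4.01 and 5.42), and Ctsw was lower there than at 2 to 3 in both libraries.

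In CD8 T cells the members went with Prf1 more weakly than in the whole natural killer gate, except Nkg7 in library 2. Gzma again had a clear ratio, 2.89 (2.46 to 3.40) in library 1 and 2.82 (2.48 to 3.22) in library 2. These ratios lay far under its natural killer values. Thinning cut the share of cells with Prf1 here from 70.6% and 48.7% to 35.0% and 23.7%. In natural killer cells that share fell from 74.2% and 80.6% to 58.4% and 57.6%. Cells counted as without Prf1 thus included cells that had it before thinning. The part of this loss in the weaker ratios was not tested. Gzmk had 1.76 and 2.34, Gzmm 1.49 and 1.74, Nkg7 1.51 and 1.97, and Gzmbl3 3.71 and 1.89. Ctsw, high in this gate, differed little with Prf1, at 1.22 and 1.33. Of the cells with Gzma, 52.9% and 43.4% had Prf1, so Gzma without detected Prf1 made up a larger part of the Gzma cells here than in natural killer cells at the same depth. In all, 4 and 5 of the 7 members passed the rule, beside 5.9% and 5.86% of genes.

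Without cells that had Rag1, Dntt or Ptcra, 4 and 3 members passed, beside 5.96% and 5.96% of genes. Most of those cells lay in library 2. The Gzma ratio there was then 2.17, Gzmk 1.82, Gzmm 1.36, Gzmbl3 1.47, Nkg7 1.55 and Ctsw 1.04. In the whole CD8 T gate, with those cells kept, mean Gzma per cell was 0.322, 0.808 and 0.983 at 0, 1, and 2 to 3 Prf1 UMIs in library 1. It was 0.294, 0.719 and 1.05 in library 2. Cells with 4 or more Prf1 UMIs numbered 18 and 8 in this gate, too few for a value.

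Klra22+ cells showed the pairing of Prf1 with Gzma and Gzmk and the opposite for Ctsw in library 2. The Gzma ratio was 4.40 (2.49 to 8.01) over 79 cells with and 188 without Prf1 in library 1, and 5.63 (4.34 to 7.35) over 96 and 260 cells in library 2. Gzmk had 4.45 and 2.88, Gzmm 2.04 and 1.53, and Nkg7 1.94 and 2.42. Ctsw had 1.04 and 0.675 (0.536 to 0.845), so the cathepsin was lower in the library 2 cells with Prf1. Here 4 of the 7 members passed in each library, beside 12.4% and 12.5% of genes. Of the cells with Gzma, 54.5% and 48.1% had Prf1. Gzmbl3 had 11 UMIs in cells with and 3 in cells without Prf1 in library 1, and 4 and 6 in library 2, under the minimum.

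The Klra22+ gate mixed cells of different kinds. Its 33 and 57 cells with Ncr1 and without Cd3e had 664 and 820 Prf1 CPM and 478 and 477 of Ctsw. The 122 and 158 cells with Cd3e and Cd8b had 232 and 133 of Prf1 and 1263 and 1136 of Ctsw. In both libraries the first subset was thus higher in Prf1 and lower in Ctsw, the order seen between the natural killer and CD8 T gates. The 81 and 102 cells with Cd3e but no Cd8b had 148 and 149 of Prf1, and the 35 and 42 with neither Cd3e nor Ncr1 had 509 and 674. Split by Prf1 within the cells with Cd3e and Cd8b, 3 members (Gzma, Gzmk, Nkg7) and 2 (Gzma, Gzmk) passed, beside 12.4% and 14.1% of genes. The median ratio over the tested members was 1.83 and 1.23 there, against 2.04 and 2.42 in the whole gate. The part of the mixture in the whole-gate pairing was not tested.

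Combinations of Prf1, Gzma and Gzmk were then counted in single cells at 1500 UMIs. In natural killer cells, 14.7% and 13.6% had all of these 3 transcripts (17.8% and 14.5% without neutrophil-marked cells), and 1.73% and 1.86% (2.10% and 2.01%) had Prf1 and Gzma without Gzmk. Prf1 with Gzmk but no Gzma was found in 27.8% and 16.9% (33.6% and 18.3%), and Prf1 with neither in 14.1% and 25.3% (16.9% and 27.1%). Gzma and Gzmk without Prf1 was found in 0.576% and 1.64% (0.699% and 1.77%). Gzma was therefore seen mostly in natural killer cells that also had Prf1 and Gzmk. In CD8 T cells all 3 were found in 10.0% and 6.88%, and Gzma with Gzmk but no Prf1 in 8.19% and 8.13%. Without Rag1, Dntt or Ptcra cells these were 10.1% and 8.75%, and 8.24% and 10.5%, so the class without Prf1 was smaller in library 1 and larger in library 2, as in the whole gate.

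Prf1 with any of Gzma, Gzmb, Gzmk, Gzmm and Gzmbl3 was seen in 51.9% and 43.3% of natural killer cells (62.8% and 46.6% without neutrophil-marked cells), 29.0% and 18.6% of CD8 T cells and 27.3% and 23.0% of Klra22+ cells. One of these granzymes without Prf1 was seen in 18.7% and 17.0% of natural killer cells (22.3% and 18.1%), 42.9% and 37.7% of CD8 T cells and 43.1% and 49.7% of Klra22+ cells. By Prf1 detected after thinning, natural killer cells were thus highest in the first class and lowest in the second in both libraries. Before thinning, Prf1 was seen in 70.6% and 48.7% of CD8 T cells, against 35.0% and 23.7% after it. For Klra22+ cells the shares were 56.1% and 52.9%, then 29.6% and 27.0%. For natural killer cells they were 74.2% and 80.6%, then 58.4% and 57.6%. A cell of the second class is therefore not shown to lack Prf1. The part of this loss in the order of the gates was not tested. In B cells Prf1 with a granzyme was seen in 0.583% and 0.194%.

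**Figure D4:**
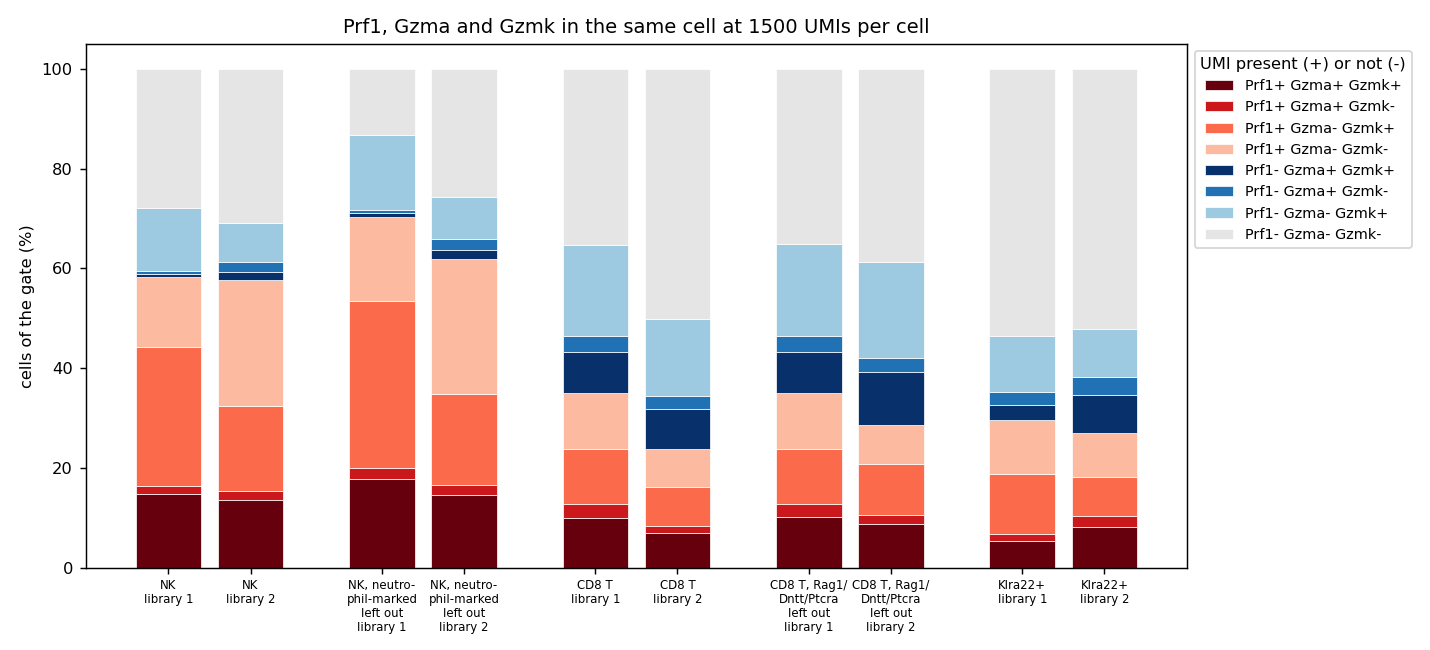
Share of the cells of each gate and library (%, stacked to 100) with and without a UMI of Prf1, Gzma and Gzmk at 1500 UMIs per cell. Reds are cells with Prf1 and blues cells without it; the darkest blue, Gzma and Gzmk without Prf1, was 0.576% and 1.64% of natural killer cells (0.699% and 1.77% without neutrophil-marked cells) and 8.19% and 8.13% of CD8 T cells.

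Other genes of the granule pathway were read from lists, with the same split by Prf1 and the same rule, which 12.4% and 8.24% of all genes passed upward and 8.43% and 8.8% downward (a ratio of 0.667 or less) in natural killer cells without neutrophil marks. In these cells Ccl5, a chemokine of killer lymphocytes, was higher with Prf1 in both libraries (ratios of 1.68 and 1.71). Of 6 and 7 tested ligands and cytokines, no other passed upward, and Ifng and Lta passed downward in library 2. Among 9 tested transcription factors 3 and 2 passed upward. Eomes, a T-box factor of natural killer and memory T cells, passed in both libraries at 2.10 and 1.69, and Tbx21, the T-box factor T-bet, passed in library 1 at 1.64 but had 1.17 in library 2. Of 8 tested release genes Stx11, a syntaxin of granule fusion, passed with 1.58 and 1.70, while Stxbp2, which binds it, had 0.654 and 0.615. Sytl2 passed downward in library 1. The direction of Stx11 depended on leaving out neutrophil-marked cells. In the whole gate it passed downward in library 1 and did not pass in library 2.

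Of 4 tested granzyme inhibitors, 0 and 2 passed upward, beside the same 12.4% and 8.24% of genes. Serpinb9, an inhibitor of granzyme B, had 1.45 in library 1 and passed at 1.63 in library 2, and Serpinb1a, an inhibitor of neutrophil proteases, had 0.198 and 0.144. Of 8 tested granule proteins and activators, 2 in each library, the cathepsins Ctsh and Ctsl, were lower in cells with Prf1, at 0.160 and 0.290 for Ctsh, beside 8.43% and 8.8% of genes. From the same list Cst7 passed upward, in library 1 only. The 5 macrophage markers summed to 1465 and 1678 CPM in the whole gate, and their part in these lower values was not tested.

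In CD8 T cells Stx11 (1.68 and 2.11) and Ccl5 (1.79 and 2.17) again passed in both libraries. Prdm1, the factor Blimp-1 of effector differentiation, passed with 1.54 and 2.05, and Tcf7, the factor TCF-1 of naive and memory T cells, was lower in cells with Prf1 at 0.639 and 0.412, where 10.7% and 17.7% of all genes passed downward. Eomes had 1.35 and 1.61 there but passed in neither library, the second value being under the minimum of UMIs. Tbx21 and Id2 passed upward in library 2 only, and not without Rag1, Dntt or Ptcra cells. Serpinb9 had 1.15 and 1.91 and passed in library 2. In Klra22+ cells Ccl5 had 4.03 and 3.09, Serpinb9 2.61 and 2.26, and Tbx21 1.72 and 2.10, all past the rule in both libraries.

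Genes most like Prf1 were ranked by the lower of the Pearson correlations of the 2 libraries, as a description. Over 9 cell gates, which share their library and differ in depth, the order among 7948 genes was Tbx21 (0.969 and 0.979), Klrd1, Cd96, Gzma (0.971 and 0.960), Gzmk, Ccl5, Txk, Nkg7, Sytl2 and Gzmbl2. Gzmm ranked 12, Ctsw 146 and Gzmbl3 186. Over single natural killer cells without neutrophil marks (858 and 1242, each at 1500 UMIs), the order among 11134 genes was Gzma (0.598 and 0.498), Gzmk (0.477 and 0.472), Cd8a, Ccl5, Gzmm, Focad, Gzmbl2, Slfn4, Gzmbl3 and Hopx. Nkg7 ranked 13 and Ctsw 10680, at -0.08 and 0.06. In CD8 T cells the values were weak, 0.274 and 0.251 for Gzma, and in Klra22+ cells Ccl5 led with 0.499 and 0.468.

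The libraries were last set side by side gate by gate, with no test and no direction of treatment. In the natural killer gate Gzmk was 1.66 (1.61 to 1.72) times and Gzmm 1.52 (1.48 to 1.56) times higher in library 1, and these 2 of 7 members were at least 1.5 times apart on the scale of CPM plus 10, beside 3.96% of 5650 genes. Prf1 was 1.24 (1.20 to 1.28) times higher in library 1, and Gzma was 1.07 (1.02 to 1.12) times higher in library 2. Without neutrophil-marked cells Gzmk was 1.78, Gzmm 1.62 and Ctsw 1.59 times higher in library 1, so 3 members passed, beside 2.91% of genes. The granzymes of natural killer cells thus did not shift together, Gzma being level while Gzmk and Gzmm were higher in library 1. With 2 UMIs of each marker in place of 1, neither Gzmk nor Gzmm passed, with log2 ratios of -0.56 and -0.55.

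In CD8 T cells Ctsw was 1.68 (1.64 to 1.71) times higher in library 1, 1 of 7 members past the rule beside 4.78% of genes, and Gzma stood at 307 and 307. Without Rag1, Dntt or Ptcra cells Ctsw was 1.43 times higher in library 1, under the rule, and Gzmbl3 was 1.75 times higher in library 2, past it, beside 2.46% of genes. In Klra22+ cells Gzma was 2.40 (2.11 to 2.75) times higher in library 2, at 361 against 150, 1 of 7 members beside 4.08% of genes. It rested on few cells, because 10 cells held 44.8% of the Klra22+ Gzma UMIs in library 1 and 10 held 40.4% in library 2. By subset, Gzma was 130 and 959 in the cells with Ncr1 and no Cd3e, and 167 and 185 in the cells with Cd3e and Cd8b. It was 73.1 and 106 in the cells with Cd3e but no Cd8b. In the 35 and 42 cells with neither Cd3e nor Ncr1 it was 270 and 1633, where 10 cells of library 2 held 89.4% of the UMIs. Gzmbl2, related to Gzmb, was 1.58 times higher in library 2 in natural killer cells and 1.75 times higher in CD8 T cells. Without neutrophil-marked cells the first ratio was 1.48, under the rule, and without Rag1, Dntt or Ptcra cells the second was 2.09.

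**Figure D5:**
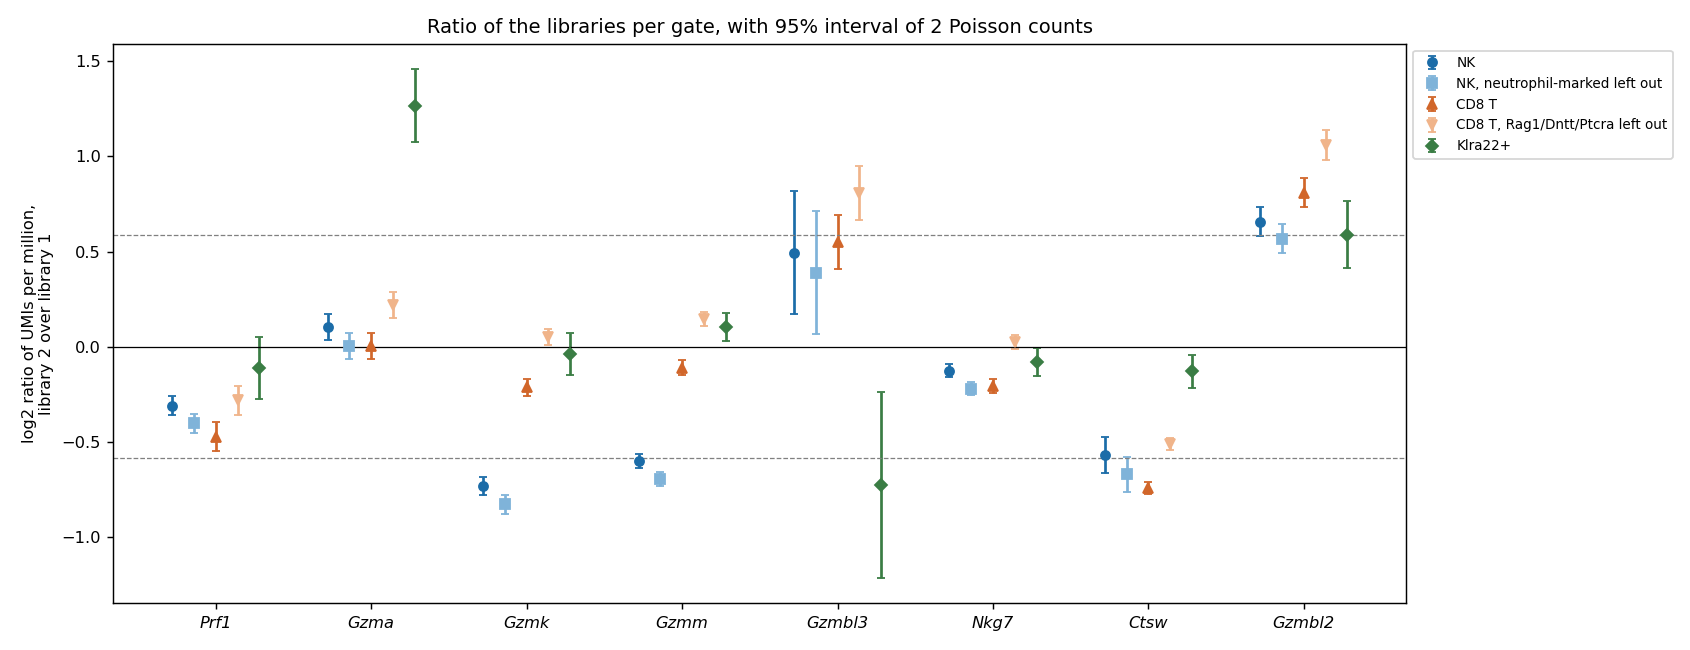
Log2 ratio of CPM, library 2 over library 1, for 7 members and Gzmbl2 in each gate, with the interval of 2 Poisson counts; dashed lines mark 1.5-fold. The ratios drawn have nothing added, so Gzmbl3 in Klra22+ cells lies past the line but did not pass on the scale of CPM plus 10; Gzma in Klra22+ cells lay highest and Gzmk in natural killer cells among the lowest.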

How the data were processed

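Single-cell RNA was measured in 2 samples, 1 per group. The deposited matrix holds raw UMI counts of each gene in each barcode and names Cell Ranger 4.0.0, per the file headers. Genome build and gene annotation were not given in the sources used here. Another deposited table with 33756 barcodes shared 111 with the matrix and was not used here. Rows of 1 symbol were summed. Barcodes with under 200 genes or over 20% mitochondrial UMIs (315 and 235) and doublets called by Scrublet in scanpy 1.11.5 (634 and 997) were removed, leaving 27768 cells. Of the barcode sequences, 71 occurred in both libraries. Gates used unthinned counts, and cells under 1500 UMIs were left out of shares and Prf1 splits, 22 and 20 natural killer, 3 and 205 CD8 T and 4 and 3 Klra22+ cells. Counts at the 3′ end are not scaled by length, so levels are compared between cells, not genes. A gene was tested in a split with 20 UMIs or more, and between libraries with 20 CPM in the higher one. The scripts were tested on simulated data (Python 3.11.15, numpy 2.4.6, scipy 1.17.1, pandas 2.3.3, matplotlib 3.10.9).

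The members and lists were chosen with earlier results of these data known. All members were named, with list genes and the 10 genes most like Prf1; the list genes given values were picked from those past the rule after their values were seen. The alternatives tried were other doublet, gate, depth, threshold and scaling choices.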

Additional observations from a re-analysis of the deposited data

How the results depend on the processing

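Of the levels in CPM, 150 of 384 values under the alternatives lay outside the counting interval of the reported value, as did 125 of 480 shares of cells. The counts of members past a rule moved in 15 of 108. For members at least 1.5 times apart between the libraries, in the natural killer gate the count was 2, and it was 1 with the median of all genes set to 0, with the mean over cells of each cell's level, with doublets kept, with 2 UMIs of each marker, and without the cells with Rag1, Dntt or Ptcra or those with Mki67 or Top2a. In CD8 T cells it was 1, and it was 2 by the mean over cells, with the same share of doublets removed, and without cells with Mki67 or Top2a. In Klra22+ cells it was 1, and it was 2 with 1 CPM added or without neutrophil-marked cells. For the split by Prf1, 4 CD8 T members of library 1 became 2 at a ratio of 2, 5 of library 2 became 2 at that ratio and 3 without Rag1, Dntt or Ptcra cells, and 6 natural killer members of library 1 became 3 with 2 UMIs of each marker. The Ctsw ratio of natural killer cells in library 1 turned from 1.56 to 0.924 without neutrophil-marked cells. Without thinning, 70.9% and 38.8% of all genes passed the Prf1 split in natural killer cells, so that split depends on equal depth. Of 407 single ratios of the Prf1 split under the alternatives, 379 kept their direction and side of the threshold, as did 233 of 250 library ratios. Where a value moved, the cause was not tested. Gzmb and, in Klra22+ cells, Gzmbl3 had too few UMIs for a Prf1 ratio. No paired analysis was possible because each group is 1 library and the barcodes carry no replicate number.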
